A study of Rattus norvegicus with 4 samples.

Results

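The genes described here are 74 named rat genes that had reads in the clone wtPC12 and none in the clone hrPC12. They were chosen by their read counts, as genes with 0 reads in both hrPC12 libraries and at least 20 reads summed over the wtPC12 libraries. Of the 25810 genes in the count files, 12643 reached 20 reads in wtPC12 and 107 of these had 0 reads in hrPC12. Of the 107, 28 were left out because an identifier stood in place of a gene symbol, and 5 because they belong to large families of channels, adhesion molecules, developmental transcription factors and Wnt ligands that the selection did not cover. Because the counts of both clones selected the 74 genes, their difference between the clones is a description and carries no test.

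The libraries were made from total RNA of clones of PC12, a line from a rat pheochromocytoma, the tumor of adrenal chromaffin cells. wtPC12 is the wild type, labelled low for REST levels, and hrPC12 is labelled high. No treatment is given for either. Each type of cell was a single clone sequenced in 2 libraries, with 20975027 to 27246502 reads on genes per library, 42974218 over the wtPC12 libraries and 48881445 over those of hrPC12. Nothing states that the libraries of a clone came from separate cultures, so that p values measure only the spread between these libraries, and REST cannot be told apart from any other difference between the clones.

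REST is a zinc finger repressor that is abundant outside the nervous system and falls as neural cells differentiate. It binds RE1, a DNA element made of a left and a right part, and recruits corepressors that remove active histone marks from the genes around it. Chromaffin cells and the PC12 line derived from them store catecholamines in dense-core granules and share much of the gene expression of sympathetic neurons. Many genes of neurotransmission, neural transcription and neural splicing have an RE1 nearby.

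Rest itself had 37 and 128 reads in the wtPC12 libraries, against 1139 and 904 in those of hrPC12. The clones did not overlap, and the log2 fold change (log2 FC, hrPC12 over wtPC12) was 3.42 with an SE of 0.57. Its adjusted p was 0.0115 in edgeR's quasi-likelihood test and Benjamini-Hochberg adjustment over 13726 genes, on the far side of the threshold of 0.01 used here. Of the chromaffin markers, Th, the rate-limiting enzyme of catecholamine synthesis, had 174452 and 128957 reads in wtPC12 and 22124 and 20755 in hrPC12. The summed level of the chromaffin markers was 1066801 and 907868 normalized counts in wtPC12 and 51009 and 55624 in hrPC12. The 12 mesenchymal markers summed to 18476 and 16695 against 96003 and 100782, so that the sums of both kinds moved with the clone. Chgb made up most of the chromaffin sum, with 687936 and 626776 normalized counts in wtPC12. Of tested markers, 7 of 10 chromaffin ones were lower and 6 of 11 mesenchymal ones higher in hrPC12 by the thresholds given below. None was called the other way, but Ddc had 20800 and 20232 reads in wtPC12 and 31045 and 27667 in hrPC12. The part of these markers in the values below was not tested. In RNA from whole cultures, fewer cells that express a gene and less RNA of it per cell cannot be told apart.

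Sequences are shown for the 2 members whose start regions held both parts of a REST element as searched here, and for 2 examples with 1 part. RefSeq holds a window of 250 bases before and 50 after the start site for 59 of the 74 members, on the rat assembly GRCr8, which is not the build on which the reads were counted. The RE1 was searched on both strands as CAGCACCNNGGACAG, that is the left part CAGCACC and the right part GGACAG with 2 free bases between them. Here the whole element means a match to this string of 15 bases alone, and the bases around it were not compared. The histamine receptor gene Hrh3 and the tetratricopeptide gene Ttc9b held such a match. Their windows are given 5′ to 3′ along the gene, with the element in capitals as it reads there, since in both it lies on the other strand. Hrh3 is on the minus strand at chr3:187574210-187574509 and its element spans positions -102 to -88 from the start. Ttc9b is on the plus strand at chr1:92080776-92081075 with the element at 21 to 35, after the start. The other windows are examples, chosen for their role in neural cells, of members with 1 part of the element alone, also in capitals, the left part in the neural splicing gene Srrm4 (chr12:45659479-45659778, plus strand) and the right part in the dopamine receptor gene Drd2 (chr8:58605153-58605452, plus strand).
Hrh3: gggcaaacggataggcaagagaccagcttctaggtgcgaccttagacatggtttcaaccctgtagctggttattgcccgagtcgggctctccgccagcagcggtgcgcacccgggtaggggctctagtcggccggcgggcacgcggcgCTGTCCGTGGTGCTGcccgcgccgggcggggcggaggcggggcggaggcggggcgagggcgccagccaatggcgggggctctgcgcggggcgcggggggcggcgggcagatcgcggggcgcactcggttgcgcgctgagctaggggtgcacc
Ttc9b: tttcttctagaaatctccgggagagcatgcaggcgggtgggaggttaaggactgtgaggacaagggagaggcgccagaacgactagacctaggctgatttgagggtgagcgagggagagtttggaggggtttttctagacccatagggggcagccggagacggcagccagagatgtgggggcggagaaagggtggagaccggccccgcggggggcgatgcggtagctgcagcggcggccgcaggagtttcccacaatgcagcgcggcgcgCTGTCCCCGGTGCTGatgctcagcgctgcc
Srrm4: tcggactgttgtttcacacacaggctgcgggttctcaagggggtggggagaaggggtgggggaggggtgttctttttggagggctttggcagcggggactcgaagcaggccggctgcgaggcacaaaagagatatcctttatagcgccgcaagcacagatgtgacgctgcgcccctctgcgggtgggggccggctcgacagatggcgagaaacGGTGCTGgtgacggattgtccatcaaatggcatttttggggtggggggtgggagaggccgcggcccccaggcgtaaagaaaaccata
Drd2: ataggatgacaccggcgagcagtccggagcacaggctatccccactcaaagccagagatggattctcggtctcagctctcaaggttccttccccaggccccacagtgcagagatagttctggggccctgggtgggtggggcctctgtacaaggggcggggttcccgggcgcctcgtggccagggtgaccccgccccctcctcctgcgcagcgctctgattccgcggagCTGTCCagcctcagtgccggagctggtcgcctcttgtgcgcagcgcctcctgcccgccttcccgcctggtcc

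The whole element was thus present in 2 of 59 members (3.39%) and in 8 of 21842 windows of coding genes (0.0366%). In the count files, 7 genes carried it in their windows. Besides the 2 members, Ogdhl, an enzyme of the oxoglutarate dehydrogenase type, had 3020, 3199, 902 and 847 reads in wtPC12 replicates 1 and 2 and hrPC12 replicates 1 and 2. Tmem179, listed under the identifier RGD1310269 and coding for a transmembrane protein, had 4306, 4301, 7 and 9 reads. Both fell in hrPC12, with log2 FC of -2.07 (SE 0.18, adjusted p 0.00164) and -9.29 (SE 0.30, adjusted p 0.000243) in edgeR's quasi-likelihood test and Benjamini-Hochberg adjustment. The other 3, Fam163b, Lhx3 and Vwc2l, had at most 4 reads in any library. The search fixed the 13 letters of the parts, so that the elements it found could differ only in the 2 free bases. The following lines show those of Hrh3, Ttc9b, Ogdhl and Tmem179, with the parts and the free bases all in capitals.
Hrh3: CAGCACCACGGACAG
Ttc9b: CAGCACCGGGGACAG
Ogdhl: CAGCACCTCGGACAG
Tmem179: CAGCACCGCGGACAG

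Looser matches were found in more windows of both kinds. The left part was found in 6 members (10.2%) and in 7.08% of coding windows, and the right part in 11 (18.6%) and in 22.2%. With up to 2 of the 13 fixed letters changed, the element was found in 4 members (6.78%), the bradykinin receptor gene Bdkrb1 and the peptidase gene Ggt6 being added, and in 1.98% of coding windows. With up to 3 letters changed it was found in 13 members (22%) and in 14.8% of coding windows. The genes with such windows were counted as lower or higher in hrPC12 by the thresholds given below for the relatives of the members. With up to 1 letter changed, 19 were tested, of which 5 were lower and 3 higher (median log2 FC -0.13). With up to 2 changed, 17 of 182 (9.34%) were lower and 8 (4.4%) higher (median -0.10), and with up to 3, 97 of 1415 (6.86%) were lower and 61 (4.31%) higher (median -0.04), beside 5.46% and 4.84% of all genes tested. The windows of members had a median GC content of 60.3% (coding genes 55%, genes tested between the clones 61%) and a median of 14 CpG (11 and 21). An element farther than this window from the start was not looked for.

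The 74 genes made up 0.803% of the 9214 named genes with at least 20 reads in wtPC12. They held 4453 and 5535 reads in wtPC12 replicates 1 and 2, which is 0.0212% and 0.0252% of the reads on genes. All 74 were read in both wtPC12 libraries, the fewest reads in a library being 4. Their read sums lay between 20 and 864, with a median of 77, and 28 of the 74 had at least 100 reads. Counts were scaled by edgeR's TMM factors, and these normalized counts are compared between libraries only, since read counts are not corrected for transcript length.

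A count of 0 allows up to 3 reads in a library, which corresponds to 2.79 normalized counts on average over the hrPC12 libraries. Against this floor the members were at least 3.93-fold to at least 167-fold lower in hrPC12, with a median bound of 14.9-fold. The bound exceeded 4-fold in 73 members and 10-fold in 47. Floors and intervals cover counting error only.

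The share of genes unread in hrPC12 depended on how many reads a gene had in wtPC12. Of named genes with 20 to 49 reads in wtPC12, 26 of 451 (5.76%) were unread in hrPC12. The share was 5.57% at 50 to 99 reads, 2.63% from 100 to under 200 reads, and 0.703% (15 of 2134) from there to under 1000. None of the 5775 genes with 1000 or more reads was unread in hrPC12. With the clones exchanged, the same rule gave 192 named genes, and the shares were higher in each class of reads, from 15.5% at 20 to 49 reads to 0.081% (5 of 6175) at 1000 and more.

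**Figure D1:**
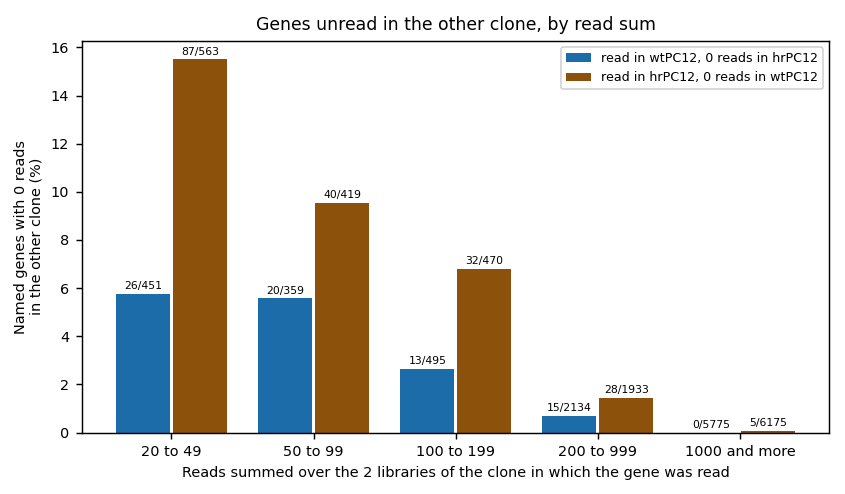
Bars give the share of named genes with 0 reads in the other clone (%), by the reads summed over the 2 libraries of the clone in which the gene was read, with the numbers of genes above each bar. In both directions the share falls as the read sum rises, from 5.76% to 0 for genes read in wtPC12 and from 15.5% to 0.081% for genes read in hrPC12.

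Near the threshold the selection turned on single reads. Tmem30b, a subunit of lipid flippases, entered with 10 reads in each wtPC12 library, and Olig2, Rdh12 and Spin2a with 21 in all. Another 7 named genes with 17 to 19 reads and 0 in hrPC12 stayed outside, Efcab10, Fam123c, Fam13a1, Gcnt1, Grk1, Ica1l and Rprm. On the other side, 45 named genes with at least 20 reads in wtPC12 had exactly 1 read in hrPC12. Without hrPC12 replicate 1 the rule gave 123 genes, and without replicate 2 it gave 112, so that the selection rested on both hrPC12 libraries.

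Enzymes that transfer ubiquitin, palmitate or phosphate, with their partners, were 10 members and held 1210 and 1580 reads in wtPC12 replicates 1 and 2. March4, a membrane-bound ubiquitin ligase of the RING-CH type, had 302 and 562 reads, or 351 and 579 normalized counts, and was at least 167-fold lower in hrPC12. March11, of the same type, had 112 and 171 reads. Trim47l, a tripartite motif gene, had 444 and 275 reads and a bound of 143-fold. These 3 differed in which wtPC12 library was the higher, replicate 2 for both March genes and replicate 1 for Trim47l.

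Zdhhc22, a palmitoyl transferase, had 128 and 151 reads. Ubash3b, a phosphatase that also binds ubiquitin, had 63 and 142 reads. Ppp1r16b, a regulatory subunit of protein phosphatase 1, had 50 and 139. In the latter 2, replicate 2 was the higher by 2 and 2.46 times in normalized counts. The other 4 genes of this role, the deubiquitinase gene Otud1, the ubiquitin ligase genes Asb9 and Rnf144a and the receptor phosphatase gene Ptprz1, had 24 to 108 reads over both libraries.

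Enzymes and carriers of sugars, lipids and small molecules were 13 members, with 1433 and 1490 reads. Wbscr17 and Galnt14 code for enzymes of the family that adds the first sugar of mucin-type chains to proteins, and had 260 and 405 reads and 214 and 218 reads. Gfpt2, which opens the hexosamine pathway that supplies the amino sugars, had 132 and 130. Chsy3, a chondroitin synthase, had 54 and 61. For these 4 genes of sugar chains the ratio of replicate 2 to replicate 1 in normalized counts lay between 0.872 and 1.38.

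Rbp4, the carrier of retinol in plasma, had 239 and 156 reads, and the retinol dehydrogenase gene Rdh12 had 9 and 12. Sgpp2, a phosphatase of sphingosine 1-phosphate, had 121 and 141 reads. Nudt16, a hydrolase of nucleotides and RNA caps, had 113 and 117. The libraries lay close together for Sgpp2 and Nudt16 (ratios of 1.03 and 0.917) and apart for Rbp4, where replicate 1 was the higher.

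Ces1a, a carboxylesterase, had 96 and 73 reads and Gstm6, a glutathione transferase, 96 and 49. Both have close relatives in the rat genome. Reads without a unique alignment were counted apart from the genes, so that reads matching a relative as well may be missing from these counts. The same holds for Trim47l, Spin2a, Stfa2l2, Tpsab1, Cym and the olfactory receptor genes Olr1349 and Olr1387. The phosphatidylcholine transfer gene Pctp, the peptidase gene Ggt6 and the phosphoglucomutase-like gene Pgm5 had 27 to 111 reads in all.

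Of the 10 members that act in transcription, splicing and chromatin, 4 belong to lists of neural regulators. Myt1l, a zinc finger factor of neurons, had 65 and 253 reads in wtPC12 replicates 1 and 2. St18, of the same zinc finger family, had 22 and 34, and Olig2, a basic helix-loop-helix factor of motor neuron and oligodendrocyte precursors, had 11 and 10. Srrm4, which promotes the inclusion of neural microexons, had 43 and 105. Replicate 2 was the higher for Myt1l, by 3.45 times, and for Srrm4, by 2.16 times, in normalized counts.

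Znf286a, a zinc finger gene, had 58 and 72 reads. Mycn, the Myc gene of neural crest tumors, had 13 and 21 reads, and the homeobox gene Gsc had 15 and 14. The HMG box gene Tox2, the meiotic cohesin gene Rad21l1 and the chromatin reader gene Spin2a had 21 to 49 reads in all.

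Receptors coupled to G proteins were 10 members with 283 and 398 reads. Hrh3, the presynaptic histamine receptor, had 68 and 116 reads in wtPC12. Drd2, the inhibitory dopamine receptor of neurons and chromaffin tissue, had 45 and 41. Chrm1, a muscarinic acetylcholine receptor, had 31 and 30. Every value exceeded the floor of 3 reads at least 10 times, and both replicates of each receptor were within 1.51 times of each other in normalized counts.

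P2ry13, a receptor for ADP, had 23 and 21 reads, and the proton sensor gene Gpr4 had 24 and 26. Bdkrb1, the inducible bradykinin receptor, had 13 and 17. The orphan receptor genes Gpr158 and Gprc5c had 17 and 60 and 33 and 46 reads. Olr1387 had 23 and 24 and Olr1349 had 6 and 17, which left Gpr158 and Olr1349 as the receptors whose libraries lay over 2-fold apart.

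Ion channels and their partners were the smallest role, 5 members with 77 and 127 reads. Chrna2, a subunit of neuronal nicotinic receptors, had 39 and 52 reads. Scnn1g, the gamma subunit of the epithelial sodium channel, had 19 and 21. Lrrc26, an auxiliary subunit of BK potassium channels, had 5 and 21, Pirt, a regulator of TRP channels, 8 and 16, and Tmc7, of the family of hair cell channels, 6 and 17. For Pirt and Tmc7 the libraries differed by less than the counting error, while for Lrrc26 replicate 2 was the higher, with a ratio of 3.72 (95% interval 1.36 to 12.6) in normalized counts.

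Secreted proteins and proteins known from immune cells were 12 members with 604 and 600 reads. Il20ra, a chain of the receptors for interleukins of the IL-20 group, held 283 and 261 of these. Crtac1, a matrix protein that also acts on axons, had 60 and 66 reads. Ccl11, the chemokine eotaxin, had 48 and 37, Lcn2, an iron-binding lipocalin, 36 and 28, and Cd22, a lectin of B cells, 30 and 29. The ratio of replicate 2 to replicate 1 lay between 0.683 and 0.974 in normalized counts for these 5 genes.

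The 11 leukocyte markers summed to 51.2 and 39.1 normalized counts in wtPC12 and to 1708 and 1525 in hrPC12. Ptprc had no reads in wtPC12 and 1 in hrPC12, Cd8a none in any library, and Mpeg1, a perforin-like gene of macrophages, 1892 and 1396 reads in hrPC12. The part of leukocyte RNA in the values of Il20ra, Ccl11, Lcn2 and Cd22 was not tested. The growth factor gene Fgf16, the Wnt enhancer gene Rspo1, the BMP-binding Crim1, the von Willebrand domain gene Vwa2, the tryptase gene Tpsab1, the cystatin gene Stfa2l2 and the chymosin gene Cym had 32 to 65 reads in all.

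The remaining 14 members were scaffolds, partners of small GTPases and others, with 570 and 788 reads. Dfnb31, which codes for the scaffold whirlin of hair cells and photoreceptors, had 119 and 184 reads. Ankrd34b, an ankyrin repeat gene, had 70 and 142. Ctnna2, the neural alpha-catenin that links cadherins to actin, had 61 and 80, and Dlgap2, a scaffold of the postsynaptic density, had 45 and 75. In all 4 replicate 2 was the higher, with ratios of 1.16 to 1.8 in normalized counts, though for Ctnna2 by less than the counting error.

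Ttc9b, whose start region holds the whole element, had 50 and 34 reads. Rgs5, which speeds the shutdown of G proteins, had 14 and 15, Arl4c, a small GTPase, 39 and 38, and Cdgap, which inactivates the GTPases Rac and Cdc42, 6 and 34. The others, Fam83f, Pcnxl2, Shisa2, Cryba2, MGC114427 and Tmem30b, had 20 to 112 reads in all.

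**Figure D2:**
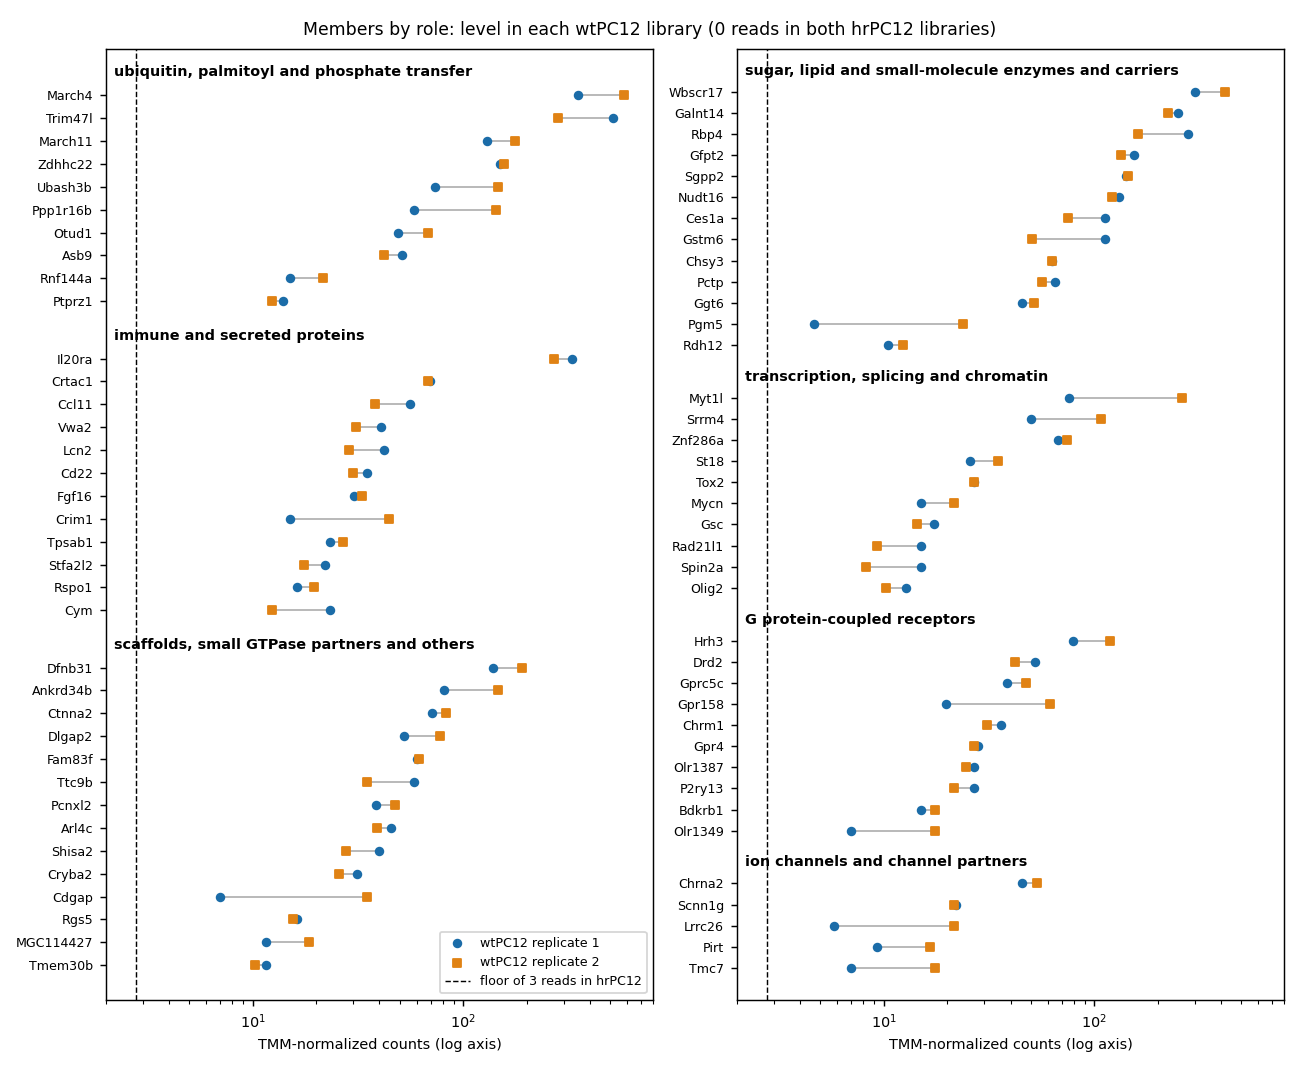
Each row is a member, grouped by role, with its TMM-normalized counts in wtPC12 replicates 1 (circles) and 2 (squares) on a log axis and the floor of 3 reads in hrPC12 as a dashed line. All points lie to the right of the floor, from 4.65 for Pgm5 in replicate 1 to 579 for March4 in replicate 2, and the members have 0 reads in hrPC12.

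The 2 wtPC12 libraries offered the only comparison that the selection left free, since it used their sum. The ratio of replicate 2 to replicate 1 in normalized counts had a median log2 of 0.04 and ranged from -1.15 to 2.35 on the log2 scale. Its exact (Clopper-Pearson) 95% interval lay above 1 in 16 members and below 1 in 6. Over the 5054 other genes with 20 to 864 reads in wtPC12, the interval lay above 1 in 31.7% and below 1 in 20.2%, beside 21.6% and 8.11% of the members. These genes were not matched to the members within that range. Named genes with 200 to 999 reads numbered 2134, 15 of them members, and those with 20 to 49 reads 451, 26 of them members. An interval excludes 1 more readily at more reads, so that these shares do not compare genes at equal read levels. The median of the absolute log2 ratio was 0.32 for the members and 0.46 for the other genes.

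Among members with at least 100 reads, those farthest toward replicate 2 were Myt1l with a ratio of 3.45 (2.62 to 4.6), Ppp1r16b with 2.46 (1.77 to 3.47) and Srrm4 with 2.16 (1.5 to 3.16). Those farthest toward replicate 1 were Gstm6 with 0.452 (0.314 to 0.644), Trim47l with 0.548 (0.47 to 0.639) and Rbp4 with 0.578 (0.469 to 0.71). Rest was also the higher in replicate 2, with 43 and 132 normalized counts, as were many other genes. Of the 5054 other genes, 715 were over 2-fold higher in replicate 2 and 226 over 2-fold lower, beside 10 and 1 of the members. Whether the library differences of Rest and of these members are related was not tested.

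**Figure D3:**
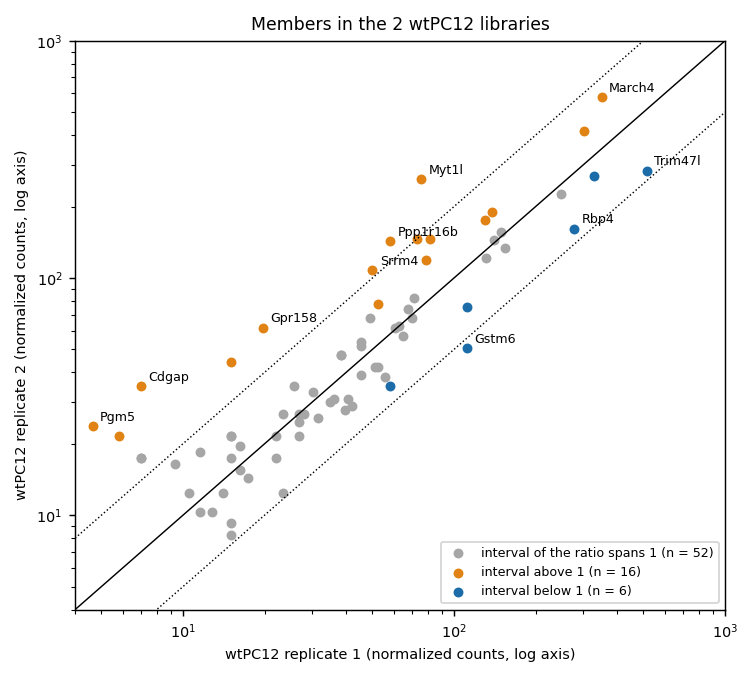
Each point is a member, with normalized counts in wtPC12 replicate 1 against replicate 2 on log axes, the solid line for equal levels, the dotted lines for 2-fold differences and colors for whether the 95% interval of the ratio lies above, below or across 1. The interval spans 1 in 52 members, 10 lie above the upper dotted line, Myt1l, Ppp1r16b, Srrm4, Gpr158, Cdgap and Pgm5 among them, and Gstm6 lies below the lower one.

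No member was tested between the clones, since the selection used that contrast and the filter of the study requires reads in both. Genes related to the members were tested. Relatives were the 454 genes of the count files that share the letters of a symbol with a member, for 48 of the members, which groups families such as Chrna or Rgs but also broad names such as Ppp, Rnf or the clone collection MGC. Of the 324 relatives tested, 29 (8.95%) were lower and 18 (5.56%) higher in hrPC12. Calls were those of edgeR's quasi-likelihood test that passed 2 on the log2 scale and had a Benjamini-Hochberg adjusted p below 0.01. Of all 13726 tested genes, 5.46% (749) were lower and 4.84% (665) were higher. The median log2 FC was -0.16 over the relatives and 0.06 over all tested genes. Letters shared with MGC114427 brought in 24 of the tested genes, with 2 lower and 3 higher.

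These calls depended on the wtPC12 libraries. Without wtPC12 replicate 2, edgeR called 0 of 13590 genes in either direction, with 6798 at an unadjusted p under 0.05 and a lowest adjusted p of 0.0134 (Benjamini-Hochberg), while DESeq2 called 732 lower and 913 higher. Without wtPC12 replicate 1, edgeR called 26 relatives lower and 10 higher. Adjusted p values below are those of edgeR's quasi-likelihood test and Benjamini-Hochberg adjustment, and reads are given in the order of wtPC12 replicates 1 and 2 and hrPC12 replicates 1 and 2.

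Of the tested relatives of Chrna2, 3 of 4 were lower in hrPC12, and so was the only one of Bdkrb1, beside 8.95% of all tested relatives. Bdkrb1 was named here after its values were seen. Related to Chrna2, the nicotinic subunit gene Chrna3 had 2918, 3193, 31 and 36 reads (log2 FC -6.74, SE 0.28, adjusted p 0.000298). Chrna7 had 341, 1089, 4 and 2 reads (log2 FC -8.04, SE 0.80, adjusted p 0.00253), and Chrna5 843, 1329, 192 and 209 (log2 FC -2.65, SE 0.30, adjusted p 0.00361). Chrna1, the subunit of muscle receptors, was not called, with 77, 76, 65 and 100 reads (log2 FC -0.11, SE 0.42, adjusted p 0.857). Bdkrb2, the constitutive bradykinin receptor next to Bdkrb1, had 2003, 2803, 7 and 10 reads (log2 FC -8.34, SE 0.37, adjusted p 0.000337). Each of the 4 lower genes had reads in hrPC12, as the filter of the test required. The members had none there, as the selection required.

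Other relatives of receptors moved differently. Gprc5a had 4, 1, 314 and 302 reads and Gprc5b 21, 38, 227 and 199, both higher in hrPC12 (log2 FC 6.63 and 2.62, adjusted p 0.00186 and 0.00781), whereas the member Gprc5c had 0 there. The muscarinic receptor gene Chrm4 had 830, 949, 329 and 315 reads and did not pass the fold threshold (log2 FC -1.70, SE 0.22, adjusted p 0.00581). The other dopamine and histamine receptor genes had at most 4 reads in any library, so that Drd2 and Hrh3 were the only ones of their groups read above that in wtPC12.

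Among the regulators, Myt1 had 3229, 4490, 18 and 22 reads (log2 FC -7.81, SE 0.31, adjusted p 0.000285), while Myt1l and St18 of the same zinc finger family were unread in hrPC12. Olig1, which lies beside Olig2, had 3, 4, 0 and 0. The splicing gene Srrm1 had 1028, 1187, 5830 and 2681 reads and was not called (log2 FC 1.66, SE 0.32, adjusted p 0.0179).

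The family of Galnt14 moved both ways. Galnt9 had 2050, 2561, 2 and 6 reads (log2 FC -9.35, adjusted p 0.000509) and Galnt3 had 285, 366, 3 and 5 (log2 FC -6.53, adjusted p 0.000974). In contrast, Galnt5 had 3, 5, 106 and 76 reads (log2 FC 4.22, adjusted p 0.00354) and Galnt11 had 197, 210, 1316 and 691 (log2 FC 2.03, adjusted p 0.00959). The Rgs family was divided in the same way, with Rgs4, Rgs9 and Rgs17 lower (log2 FC -7.75, -4.83 and -9.05) and Rgs3 and Rgs16 higher (2.27 and 5.78) in hrPC12 at adjusted p values of 0.000261, 0.00201, 0.000414, 0.00283 and 0.00224.

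Some members with many reads had no called relatives, and none of 6 tested March genes, 16 Zdhhc genes and 15 Nudt genes passed both thresholds. Others had, as Galnt14 and Myt1l above. Of the relatives of Wbscr17 by letters, 1 of 3 tested was called, Wbscr27 (444, 338, 110 and 78 reads, log2 FC -2.33, adjusted p 0.00774). For Rbp4 the only tested relative, also by letters alone, was the cellular retinol-binding gene Rbp2. It was higher in hrPC12, with 2, 0, 67 and 63 reads (log2 FC 5.62, SE 0.85, adjusted p 0.00892). March8, with 1209, 1467, 3837 and 3350 reads, had a log2 FC of 1.19 (SE 0.17, adjusted p 0.007), under the fold threshold. Sgpp1 had 851, 1444, 747 and 623 reads (log2 FC -0.97, adjusted p 0.0462) and Gfpt1 361, 921, 2252 and 1786 (log2 FC 1.44, adjusted p 0.0511). Gstm1 and Gstm7 were lower in hrPC12, with log2 FC of -3.33 and -3.39 and adjusted p of 0.00548 and 0.00187. Their reads were 37231, 19232, 3495 and 3297 for Gstm1, which like Gstm6 was the higher in wtPC12 replicate 1.

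**Figure D4:**
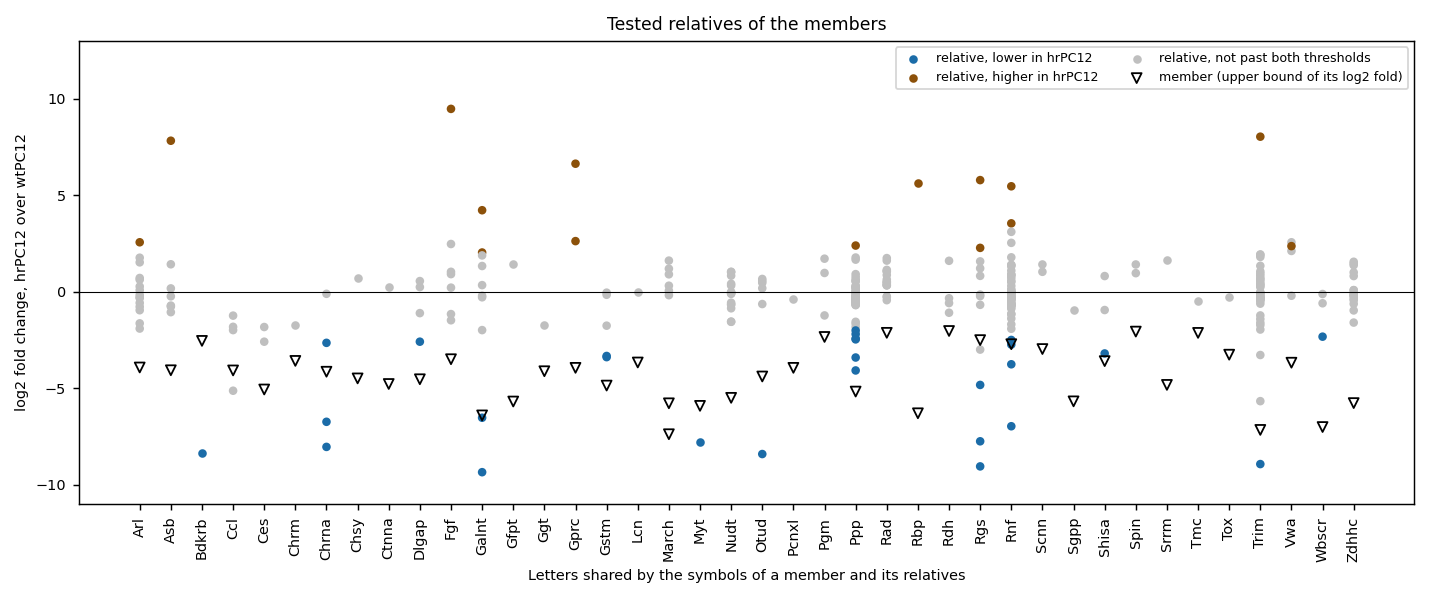
Gray, blue and brown points give the log2 fold change (hrPC12 over wtPC12) of each tested relative, by the letters it shares with a member, and open triangles the upper bound of the member's own log2 fold change at the floor of 3 reads; genes named MGC are left out. Chrna, Bdkrb and Myt hold relatives lower in hrPC12, Galnt and Rgs hold relatives in both directions, and March, Zdhhc and Nudt hold none past the thresholds.

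Of the 74 members, 6 belong to the gene lists of neural function used here. The lists are not complete, and the members Drd2, Hrh3, P2ry13, Ctnna2 and Dlgap2 are on none. The list of acetylcholine, serotonin and purine receptor genes thus lacks P2ry13. Of its genes, 47 were in the count files, 2 were members (Chrna2 and Chrm1) and 25 were tested. Of these 25, 12 were lower and 2 higher in hrPC12, with a median log2 FC of -2.65. The lower ones included the nicotinic subunits Chrnb2 and Chrnb4 (log2 FC -5.59 and -3.91, adjusted p 0.000686 and 0.00131) and the ATP-gated channel gene P2rx2 (-7.83, 0.000427). Of 42 neural basic helix-loop-helix and zinc finger factor genes, 3 were members (Myt1l, St18 and Olig2), 17 had no reads and 11 were tested. The 4 called genes were lower, Myt1, Scrt1, Scrt2 and Lhx4, and the median log2 FC was -0.28. Of 13 neural RNA-binding and splicing genes, Srrm4 was a member and 11 were tested, with 1 lower, Elavl3 (log2 FC -5.72, SE 0.47, adjusted p 0.0014), and a median of -0.38.

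The other 12 lists held no member. Among tested genes, 10 of 19 sympathoadrenal regulators, 11 of 17 catecholamine and chromaffin granule genes, and 20 of 42 exocytosis and synaptic vesicle genes were lower in hrPC12, with medians of -3.90, -3.29 and -2.35. Only the last of these held a gene that was higher, Erc2. Lower and higher genes numbered 12 and 1 of 28 voltage-gated sodium, calcium and other cation channels (median -2.41), 10 and 1 of 25 adhesion genes (-2.13), and 7 and 1 of 28 cytoskeleton and neurite genes (-0.92). They numbered 2 and 1 of 8 glutamate receptors (-1.31), 1 and 0 of 4 GABA and glycine receptors (-1.08), and 4 and 2 of 13 neuropeptides and peptide receptors (-0.97). In lists longer than the marker sums above, mesenchymal markers had 1 lower and 7 higher of 13 (median 3.63), leukocyte markers 0 and 1 of 4 (1.99), and Schwann and glial markers 0 and 1 of 3 (0.68). The lists were written with earlier results of these data known and are no independent evidence of their directions.

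In the gene order of GRCr8, 73 members could be placed, and none of the 146 nearest genes of the count files was itself a member. The members are 74 of the 25810 genes, so that few such pairs would arise in any order. Their absence shows nothing about how the members are arranged. At least 1 neighbour had 20 or more reads in hrPC12 for 57 members, and both had for 26. Of the 146 neighbours, 83 had that many, beside 13218 of all 25810 genes in the count files. The counts by member were not set against those of other genes. March4, for example, lay between Xrcc5, with 1851, 1746, 1845 and 1685 reads, and Smarcal1, with 1283, 1207, 1074 and 1007. For 7 members both neighbours were at 0 in hrPC12, and those neighbours had at most 1 read in a wtPC12 library. Of the 35 neighbours with 0 reads in hrPC12, 27 had 0 reads in all libraries. Of 96 neighbours tested, 13 (13.5%) were lower and 4 (4.17%) higher in hrPC12, beside 5.46% and 4.84% of all tested genes.

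Several of the 13 lower neighbours belonged to the family of the member. Rgs4 lay beside Rgs5, Bdkrb2 beside Bdkrb1, Gstm7 beside Gstm6 and the ADP receptor gene P2ry12, with 1006, 873, 0 and 2 reads (log2 FC -9.94, SE 0.70, adjusted p 0.001), beside P2ry13. Rgs4, Bdkrb2 and Gstm7 were also counted among the lower relatives above. Scnn1b beside Scnn1g, Rdh11 beside Rdh12 and Ccl7 beside Ccl11 were tested neighbours of the same kind that were not called. Other lower neighbours had no family relation to the member. Among them, Slc35d3 beside Il20ra had 9418, 9814, 8 and 18 reads, and Grin1 beside Lrrc26 had 5387, 6675, 3 and 10. Ptk2b beside Chrna2 had 1959, 2568, 22 and 33. The kit used for the libraries does not mark the strand, so that reads of a member and of a gene that overlaps it on the other strand cannot be told apart.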

How the data were processed

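Paired-end libraries were made from total RNA with the Illumina TruSeq RNA kit v2. The submitters' processing notes name TopHat2 2.0.4, HTSeq 0.5.3, DESeq 1.9.12 and the rat build rn4, and the authors deposited raw read counts per gene and library, without normalization. The strand setting and the annotation release are not given in the sources used here. The authors' table of their own comparison (means, fold changes and p values) was not used. Reads on genes were 37.9% to 41.3% of all reads accounted for, and summary rows were left out.

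Counts were analysed in R 4.3.3 with edgeR 4.0.16 (TMM factors, quasi-likelihood test with the legacy option, Benjamini-Hochberg adjustment) over the 13726 genes that averaged 5 normalized counts or more and had reads in each clone. Calls needed an adjusted p under 0.01 and a log2 fold change past 2. The members and the lists were chosen with earlier results of these data known. Genes named in the text are the 25 members with the highest mean normalized counts, members in a list, those nearest the threshold, the 3 most unequal between the wtPC12 libraries in each direction, and the called relatives and list genes that share a family or list with these. Others were named after their values were seen. The joined RE1 and its mismatch counts were added after seeing the data. Of the members, 73 matched a RefSeq symbol, 10 of them through an older symbol. With 2 libraries against 2, a permutation test cannot go below 0.333 (two-sided). The libraries of each clone differed by more than sampling noise (chi-square per degree of freedom 86.8 and 62.9). Alternatives were RLE factors, library totals, every gene with a read, filterByExpr, DESeq2 1.42.0, the legacy option off, an adjusted p of 0.05, other minimum reads and each library left out.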

Additional observations from a re-analysis of the deposited data

How the results depend on the processing

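The number of named genes read only in wtPC12 was 74. It was 48 at a minimum of 50 reads and 225 when up to 3 reads were allowed in each hrPC12 library, and it ranged from 73 to 123 when each library was left out in turn (the highest without hrPC12 replicate 1, and 112 without hrPC12 replicate 2). A minimum of 10 reads gave 106 genes and one of 20 normalized counts gave 77. The genes higher in hrPC12, 665, became 1127 when every gene with a read was tested and 1088 at an adjusted p under 0.05. Leaving out each library in turn gave 0 to 859 lower and 0 to 962 higher genes, and 0 to 29 lower and 0 to 23 higher relatives of the members. Each 0 came without wtPC12 replicate 2, where edgeR's lone wtPC12 library was assumed to vary as the hrPC12 libraries did, 6798 of 13590 genes had an unadjusted p under 0.05 and DESeq2 called 732 lower and 913 higher. The same assumption held with wtPC12 replicate 1 left out, where genes were called, and the cause of the 0 counts was not tested. Without wtPC12 replicate 1, 10 relatives were higher in place of 18. The other scalings, filters and tests kept the counts of lower genes, of relatives and the summed level of the members (5441 ± 369, SD over the wtPC12 libraries) within 1.5 times or 1 SD. No paired analysis was possible because the labels of the libraries pair none across the clones, and the replicate numbers used here are only names given in sample order. Genes with few reads in wtPC12 limit the bound on their fold, which falls to 3.93 at 20 reads.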

Other observations

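The 5 genes of large families that the selection left out had reads like those of the members. The Wnt ligand gene Wnt3a had 54 and 58 reads in wtPC12 replicates 1 and 2, the potassium channel gene Kcnk15 had 42 and 43, and the forkhead gene Foxq1 had 19 and 22. Kcnn2, a calcium-activated potassium channel gene, had 11 and 20 reads, and the protocadherin gene Pcdhb2 had 7 and 16. None of the 5 had a read in hrPC12.

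Of the 45 named genes with exactly 1 read in hrPC12, 6 had more reads in wtPC12 than any member. Xkr7 had 444 and 1187 reads in wtPC12, and Fam5b 667 and 943. Wnk2, a kinase that controls ion transport, had 484 and 955, and Gpr123, an adhesion-type receptor gene, had 526 and 751. The RNA-binding gene Brunol6 had 484 and 596, and Alk, a receptor tyrosine kinase gene of neural crest cells, 306 and 736. These genes were picked after their values were seen, as those with the most reads in wtPC12.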
